A study of Mus musculus with 23 samples.

Results

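The 10 genes described here encode molecules of the vessel wall: the inducible adhesion receptors *Sele*, *Selp*, *Icam1* and *Vcam1*, the constitutive endothelial adhesion genes *Icam2* and *Pecam1*, and the scavenger and lectin receptors *Stab1*, *Stab2*, *Lyve1* and *Clec4g* that mark liver sinusoids. They were taken by symbol from a table of 48895 named genes, and all 10 were measured. The libraries came from male BALB/c mice aged 4 to 6 weeks at the start. The 9 tumor-bearing mice received CT26 cells, a mouse colon carcinoma line, injected into the serosa of the cecum, and each gave a pre-metastatic liver (n = 9) and a primary tumor (n = 9) 3 weeks later. Sham-operated mice without tumors gave the control liver (n = 5). Liver and tumor of tumor-bearing mice are therefore paired within the mouse, all tumors descend from a single cell line, and each library is 1 bulk tissue piece of poly(A) RNA.

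Leukocytes leave the blood in steps. E-selectin and P-selectin, encoded by *Sele* and *Selp*, slow the cells by binding sugars on leukocyte ligands, and ICAM-1 and VCAM-1 then hold them through integrins. Inflammatory cytokines raise *Sele*, *Icam1* and *Vcam1* largely through the transcription factor NF-kappaB, whereas ICAM-2 and PECAM-1 are carried by resting endothelium. Liver sinusoidal endothelial cells differ from other capillaries in being fenestrated, in clearing waste molecules through the stabilins and in carrying little P-selectin at rest.

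To show sequence beside a start of the inducible genes, the 250 bases before the RefSeq start (GRCm38.p6) are printed for *Sele* at chr1:164047984-164048233, *Selp* at chr1:164115014-164115263 and *Icam1* at chr9:21015690-21015939, each on the plus strand and each free of annotated exons. For *Sele* the deposited table begins the gene farther upstream than RefSeq does, so this window lies within the gene as counted. The promoter table held 6 of the 10 genes, *Vcam1* not among them. Capitals mark a match to a short NF-kappaB-like pattern, searched on both strands.
*Sele*: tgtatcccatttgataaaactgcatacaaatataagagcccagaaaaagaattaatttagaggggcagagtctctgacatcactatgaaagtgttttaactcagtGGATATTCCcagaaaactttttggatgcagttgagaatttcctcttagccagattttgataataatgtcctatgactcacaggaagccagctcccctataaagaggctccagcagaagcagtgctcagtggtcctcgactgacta
*Selp*: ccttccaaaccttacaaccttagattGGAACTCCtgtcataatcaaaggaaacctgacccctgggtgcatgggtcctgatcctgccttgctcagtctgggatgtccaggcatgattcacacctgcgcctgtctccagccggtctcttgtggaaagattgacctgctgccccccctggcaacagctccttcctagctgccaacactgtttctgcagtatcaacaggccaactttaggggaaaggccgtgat
*Icam1*: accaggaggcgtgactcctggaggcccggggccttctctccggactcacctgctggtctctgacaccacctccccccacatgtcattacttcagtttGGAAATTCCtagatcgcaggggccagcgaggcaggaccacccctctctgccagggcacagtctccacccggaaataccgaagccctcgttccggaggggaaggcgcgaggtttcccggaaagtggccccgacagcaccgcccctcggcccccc
The pattern GGANNTTCC stood in *Sele*, 145 bases before the start, and in *Icam1*, 153 bases before it, and in 3.59% of all 32851 promoters of that length. It was added after these sequences had been seen. The pattern GGANTTCC, 1 base shorter and not the usual form of the motif, stood in *Selp*, 224 bases before the start, in *Stab1* and *Stab2*, and in 4% of all promoters. The longer NF-kappaB consensus matched none of the 6 windows and 7.25% of all promoters. These are matches of letters in a window and say nothing of binding.

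The tissue labels were checked against defining markers. The 5 hepatocyte markers, albumin among them, summed to between 33020 and 75320 RPKM (reads scaled to gene length and to the library's total count) in the livers and to between 7.06 and 289 RPKM in the tumors, with the highest tumor values in mice M12 and M10. The 6 epithelial genes summed to 97.5 to 128 RPKM in control liver, 84.2 to 133 in pre-metastatic liver and 35.4 to 113.5 in tumor. These sums overlapped and did not set the tumors apart. Among them *Krt20* averaged 65.4 RPKM in tumors and reached at most 1.31 RPKM in a liver, while *Vil1* averaged 0.0729 RPKM in tumors. Against the pre-metastatic liver, 2 of the 6 were called higher in tumor and 4 lower. The 10 pan-endothelial genes (*Cdh5*, *Kdr*, *Tek* and others) summed to 32.2 to 59.1 RPKM in control liver, 17.3 to 70.4 in pre-metastatic liver and 38.2 to 71.8 in primary tumor, so endothelial RNA was present in every library. Mouse C1 was the lowest control and mouse M7 the lowest tumor-bearing mouse on this sum. Counted reads ranged from 44587556 to 79773163 per library. An index of circadian clock genes split the livers into 9 early and 5 late libraries, and the late ones held 1 control. Values within the early libraries are therefore given beside the results on the livers.

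The first comparison set the pre-metastatic liver against the control liver, the step at which the study asked how a distant tumor alters the liver. *Selp*, *Sele*, *Icam1* and *Stab2* were higher in the pre-metastatic liver, so 3 of 4 inducible genes, 0 of 2 constitutive genes and 1 of 4 sinusoid genes rose, and none of the 10 fell. Over all 16987 genes tested, 17.7% were called higher and 13.3% lower (edgeR quasi-likelihood test, Benjamini-Hochberg adjusted p under 0.05). The median log2 fold change was 0.82 for the inducible, 0.46 for the constitutive and 0.38 for the sinusoid genes, against 0.01 for all genes. By limma on log2(RPKM + 1), *Sele* (adjusted p = 0.175) and *Icam1* (0.0591) were no longer called, and by the exact Wilcoxon test *Stab2* (adjusted p = 0.138), *Icam1* (0.081) and *Sele* (0.0605) were not. In bulk tissue, a change in the number of cells of a type and a change in RNA per cell cannot be told apart.

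**Figure D1:**
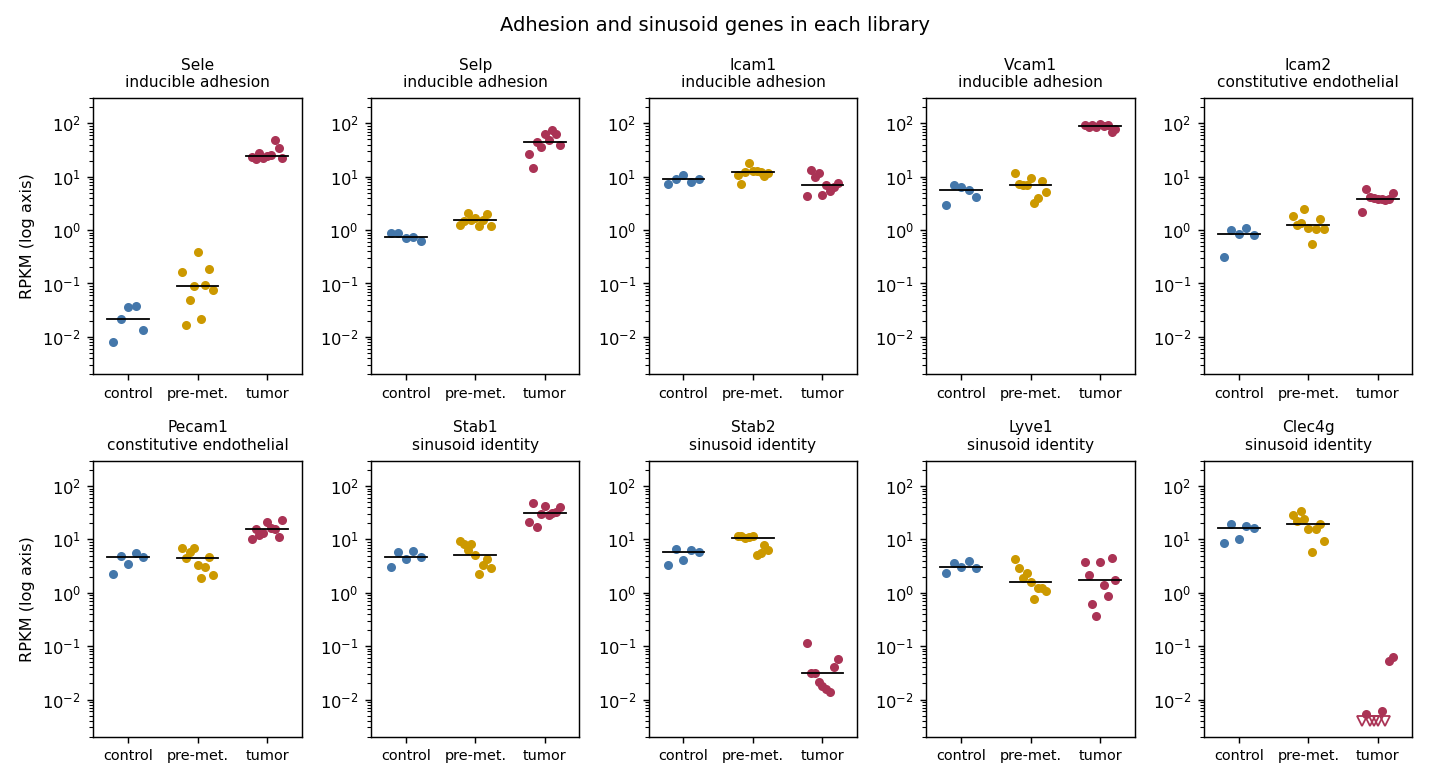
Level of each of the 10 genes in every library, in RPKM on a log axis, for control liver (n = 5), pre-metastatic liver (n = 9) and primary tumor (n = 9); dots are libraries, horizontal lines are group medians, and open triangles mark libraries listed at 0. *Selp* separates the livers without overlap, while *Stab2* and *Clec4g* are near 0 in the tumors and *Stab1* is highest there.

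P-selectin separated the groups. *Selp* (chr1:164115264-164150026, plus strand, mm10) measured 0.896, 0.888, 0.703, 0.752 and 0.614 RPKM in the controls C1, C4, C5, C6 and C7, and between 1.18 and 2.06 RPKM, with a median of 1.55, in the 9 pre-metastatic livers. All 9 lay above every control, a pattern that 4.85% of the genes tested showed in this direction. The log2 fold change was 1.08 ± 0.169 (SE, adjusted p = 0.000343, edgeR). Within the early livers it was 1.04 ± 0.194 (adjusted p = 0.00404, edgeR). *Selp* is also a gene of platelets and megakaryocytes, and 2 of 5 platelet genes rose, with *Ppbp* up by 1.41 on the log2 scale. The other 3 gave no call, *Gp1ba* with a negative estimate (-0.43). With library totals 1 of the 5 was called higher. The summed platelet genes ranged from 1.86 to 3.62 RPKM in control liver and from 3.49 to 7.76 RPKM in pre-metastatic liver. The part of platelet RNA in the *Selp* difference was not tested. *Selp* also overlaps 1451 bases of the antisense gene *Gm16548*, which ranged up to 21.6 RPKM in the livers. A second antisense gene, without a symbol, overlaps *Selp* by 2935 bases. It reached at most 1.22 RPKM in a liver and 3.04 RPKM in a tumor. The strand setting of the counting is not given in the sources used here, so reads of *Selp* and of these antisense genes may be mixed.

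E-selectin was close to the limit of detection in liver. *Sele* (chr1:164039602-164058487, plus strand) measured 0.00815, 0.0216, 0.0369, 0.0385 and 0.0134 RPKM in the 5 controls, from at most 9 reads. In the pre-metastatic livers it ranged from 0.0166 to 0.393 RPKM with a median of 0.0886, from 3 to 90 reads. Of the 9 livers, 7 lay above every control, and mice M2 and M7 lay within the control range. This gave a log2 fold change of 2.47 ± 0.749 (SE, adjusted p = 0.0196, edgeR). Without control C1 the call was lost (2.26 ± 0.812, adjusted p = 0.0515, edgeR), and without mouse M6, the highest liver, the value was 1.94 ± 0.619 (adjusted p = 0.0263, edgeR). Within the early livers *Sele* did not reach the count minimum and was not tested.

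The liver of mouse M6 also held the highest median level, as a percent of its own tumor, of a set of genes typical of the tumors. *Rhox5*, whose levels over the 14 livers were most like those of *Sele* (r = 0.947 on log2(RPKM + 1)), averaged 234 RPKM in the tumors and reached 3.92 RPKM in the M6 liver, against 0.0156 to 1.17 RPKM in the other pre-metastatic livers and 0.103 to 0.496 RPKM in the controls. *Rhox5* was picked here for its likeness to *Sele*, whose highest liver was M6, so its own peak in M6 follows from that choice. A further 20 genes were chosen after the values were seen, as those highest in tumors among genes with at most 3 reads in any control liver. For them the M6 liver held a median of 1.15% of the level in its own tumor. Not all of the 20 peaked there: *Ccl7* was highest in the liver of M8, *Melk* in that of M12 and *Tubb3* in that of M1, for example. *Sele* in that liver stood at 1.62% of its tumor level, where the mean of the control livers was 0.085% of the mean of the tumors. In the other 8 mice, *Sele* stood at 0.0763% to 0.699% of the tumor level, and the median of the 20 genes at 0.00868% to 0.503%. The part of tumor RNA in the *Sele* difference was not tested.

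**Figure D2:**
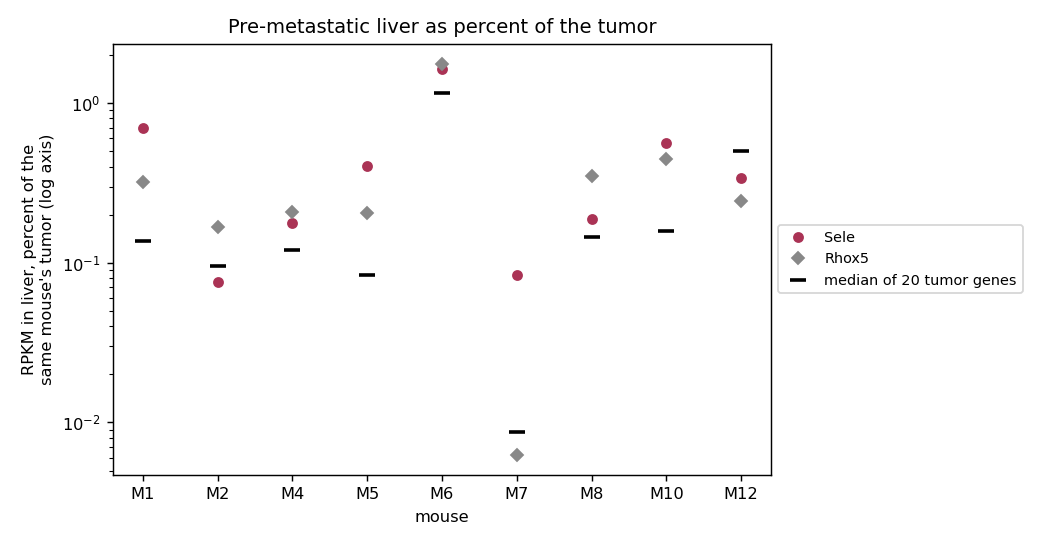
Level in the pre-metastatic liver as a percent of the level in the same mouse's tumor, on a log axis, for *Sele*, *Rhox5* and the median of 20 tumor genes in each of the 9 tumor-bearing mice. In mouse M6, *Sele* (1.62%) and the median of the tumor genes (1.15%) are each higher than in any other mouse. *Rhox5* (1.77% in M6) was picked for its likeness to *Sele* over the livers, so its peak in M6 follows from that choice.

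*Icam1* rose modestly. ICAM-1 binds the leukocyte integrins LFA-1 and Mac-1, and in liver it is carried by sinusoidal endothelium, Kupffer cells and hepatocytes. *Icam1* (chr9:21015960-21028797, plus strand) measured 7.32, 8.95, 10.6, 7.85 and 9.08 RPKM in the controls and 7.16 to 18.5 RPKM, with a median of 12.2, in the pre-metastatic livers. Mouse M5 was the highest, mouse M2 lay below every control, and 7 of the 9 lay above every control. The log2 fold change was 0.56 ± 0.161 (SE, adjusted p = 0.0165, edgeR), and 0.73 ± 0.122 within the early livers (adjusted p = 0.00255, edgeR). Kupffer and leukocyte genes moved in the same direction. Of 5 Kupffer genes 4 rose, led by *Timd4* (1.77 on the log2 scale). The 5 Kupffer genes summed to 54.7 to 112 RPKM in control liver and 111 to 334 RPKM in pre-metastatic liver, and their part in the *Icam1* value was not tested. An antisense gene also overlaps *Icam1* by 491 bases and reached at most 1.975 RPKM in a liver.

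*Vcam1*, whose product binds the integrin VLA-4, did not pass the test. It measured 2.91, 6.87, 6.45, 5.75 and 4.22 RPKM in the controls and 3.28 to 11.8 RPKM, with a median of 7.11, in the pre-metastatic livers. Of the 9 livers, 5 exceeded every control, led by mouse M1, and the others overlapped the controls. Its log2 fold change was 0.52 ± 0.274 (SE, adjusted p = 0.162, edgeR). *Vcam1* lies at chr3:116110020-116129688 on the minus strand.

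The constitutive genes gave no call. *Icam2* (chr11:106377656-106388123, minus strand) measured 0.316, 1.0, 0.837, 1.11 and 0.810 RPKM in the controls and 0.550 to 2.44 RPKM, with a median of 1.24, in the pre-metastatic livers. Its log2 fold change of 0.80 ± 0.302 narrowly missed the threshold (adjusted p = 0.054, edgeR), and passed it when control C6 or mouse M7 was left out. *Pecam1* (chr11:106654213-106750623, minus strand) measured 2.22 to 5.69 RPKM in the controls and 1.88 to 7.05 RPKM in the pre-metastatic livers. Its log2 fold change was 0.12 ± 0.274 (adjusted p = 0.776, edgeR), and the groups overlapped over nearly their whole range. 

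Among the sinusoid genes *Stab2* was the one that rose. Stabilin-2 clears hyaluronan and other ligands from blood and is largely confined to sinusoidal endothelium in liver. *Stab2* (chr10:86841210-87007942, minus strand) measured 3.33, 6.68, 4.14, 6.43 and 5.93 RPKM in the controls. It measured 11.8, 11.5, 10.5, 11.3 and 11.9 RPKM in mice M1, M2, M4, M5 and M6, and 5.12, 5.69, 7.71 and 6.31 RPKM in mice M7, M8, M10 and M12. Of the 9 livers, 6 exceeded every control and the other 3 lay among them. On the log2 scale the rise was 0.86 ± 0.224 (SE, adjusted p = 0.00926, edgeR), and 0.86 ± 0.288 within the early livers (adjusted p = 0.0499, edgeR).

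*Stab1*, the related receptor that is shared by sinusoidal endothelium and some macrophages, did not pass the test. It measured 3.08, 5.93, 4.26, 6.08 and 4.75 RPKM in the controls and 2.27 to 9.42 RPKM, with a median of 5.16, in the pre-metastatic livers. Its log2 fold change was 0.26 ± 0.282 (adjusted p = 0.513, edgeR). *Stab1* lies at chr14:31139017-31168651 on the minus strand. *Clec4g*, which encodes the lectin LSECtin, measured 8.68, 19.6, 10, 17.7 and 16.4 RPKM in the controls and 5.78 to 34.1 RPKM, with a median of 19.4, in the pre-metastatic livers. Its log2 fold change was 0.49 ± 0.315 (adjusted p = 0.26, edgeR). *Clec4g* lies at chr8:3707069-3721186 on the minus strand. In both genes mouse M7 was the lowest and 4 livers exceeded every control. Within the early livers the log2 fold changes of the genes without a call were 0.25 for *Vcam1*, 0.69 for *Icam2*, 0.08 for *Pecam1*, 0.10 for *Stab1* and 0.49 for *Clec4g*, and none of these passed the test there.

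*Lyve1*, a hyaluronan receptor of sinusoidal and lymphatic endothelium, had the only negative estimate. It measured 2.36, 3.69, 3.03, 3.97 and 2.86 RPKM in the controls. In the pre-metastatic livers it measured 4.30, 2.87, 1.93, 2.38, 1.62, 0.765, 1.23, 1.23 and 1.07 RPKM in mice M1, M2, M4, M5, M6, M7, M8, M10 and M12. In 6 livers it lay below every control, while mouse M1 lay above them all. The log2 fold change of -0.65 ± 0.309 did not pass the test (adjusted p = 0.12, edgeR). Within the early livers it was -0.99 ± 0.261 and passed (adjusted p = 0.019, edgeR), and without mouse M1 it was -0.90 (adjusted p = 0.0121, edgeR). *Lyve1* lies at chr7:110850607-110862953 on the minus strand. Of 5 lymphatic genes, *Pdpn* rose and the other 4 gave no call.

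The members were next set against the 10 pan-endothelial genes of the same library, as the log2 RPKM of the member minus the mean log2 RPKM of those genes. This ratio is a description without a test. *Stab2* was higher in all 9 pre-metastatic livers than in all 5 controls, with a mean difference of 0.78 on the log2 scale. Of all 16987 genes tested, 2.63% were higher without overlap on this scale. *Lyve1* was lower by a mean of 0.85, with overlap through mouse M1. *Sele*, *Selp* and *Icam2* were higher by 1.62, 1.01 and 0.76, with overlap. A pseudocount of 0.01 was added to every RPKM value. It is close to the *Sele* level of the controls (0.00815 to 0.0385 RPKM), so it narrows the *Sele* difference. The differences of *Icam1*, *Vcam1*, *Clec4g*, *Stab1* and *Pecam1* were 0.47, 0.42, 0.35, 0.11 and 0.02, also with overlap.

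**Figure D3:**
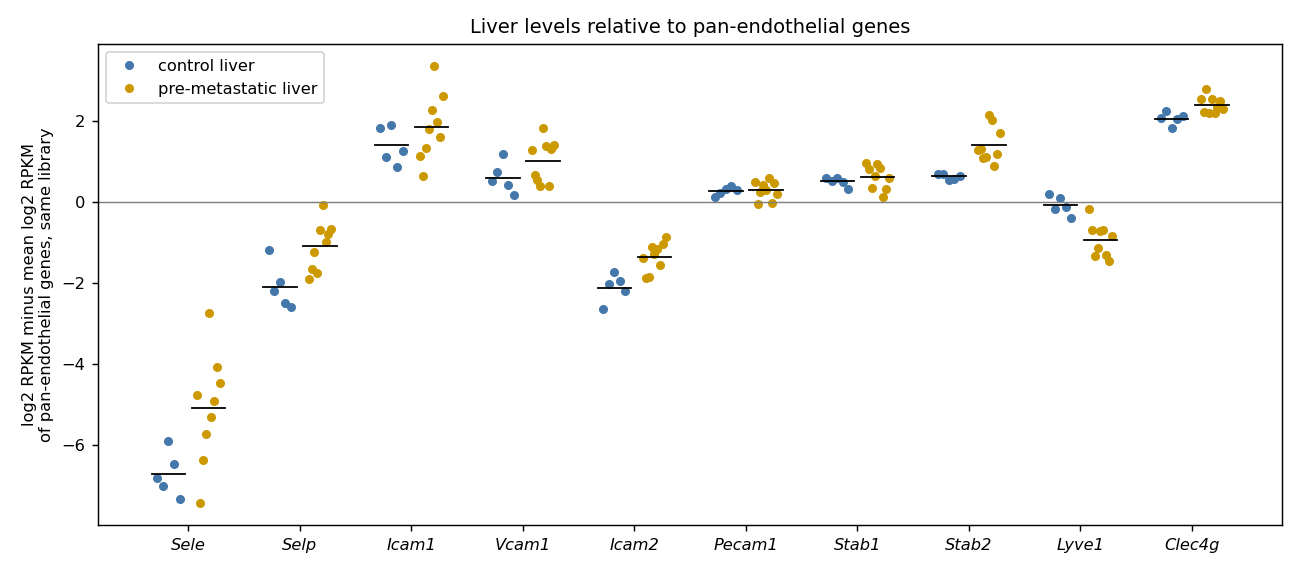
Level of each gene relative to 10 pan-endothelial genes of the same library, on the log2 scale, in control liver (n = 5) and pre-metastatic liver (n = 9); dots are libraries and lines are group means. *Stab2* is the only one of the 10 whose groups do not overlap (mean difference 0.78), and *Lyve1* shows the largest shift downward (-0.85).

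Other genes of the vessel and of leukocyte adhesion gave the setting. Of 10 pan-endothelial genes none was called in the livers, with a median log2 fold change of 0.13 (edgeR). The estimate of *Cdh5* was the largest of them, at 0.60 (adjusted p = 0.134). Of 12 further sinusoid genes, *Gata4*, a transcription factor of sinusoidal identity that hepatocytes also express, fell by 0.72 on the log2 scale (adjusted p = 0.0194, edgeR), and the other 11 gave no call. Of 7 continuous and angiogenic vessel genes tested, *Cd34* (1.23) and *Apln* (3.50) rose. *Apln* was at no more than 0.457 RPKM in any liver, with mouse M6 the highest, and averaged 30.3 RPKM in tumors. Of 8 other adhesion and junction genes tested, *Cd44* (1.37) and *Alcam* (0.73) rose, and *Icam4* (-2.69) and *Jam3* (-0.58) fell.

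The leukocyte partners of these receptors were also measured: 7 of 9 ligand genes were higher in the pre-metastatic liver and none fell, with a median log2 fold change of 1.40. *Itgam*, the alpha chain of Mac-1, rose by 2.75 ± 0.496 (SE, adjusted p = 0.000877, edgeR), and *Selplg*, which encodes the P-selectin ligand PSGL-1, rose by 1.26 ± 0.286 (adjusted p = 0.00397, edgeR). *Itga4* and *Itgb1*, the chains of VLA-4, gave estimates of 0.30 and 0.02 and no call. Of 10 NF-kappaB inducers and feedback genes, 7 rose and none fell. *Relb* rose by 1.29 and *Il1b* by 1.24, whereas *Tnf* gave 0.22 with no call. With library totals in place of TMM factors, 4 of these 10 were called. All 4 leukocyte markers and 3 of 4 neutrophil markers tested also rose, *Ptprc* by 1.44 and *S100a8* by 2.32. Of 5 stellate cell and fibroblast genes *Col1a1* rose by 2.71, and of 5 epithelial genes *Krt20* (3.67), *Vil1* (2.99) and *Cdh1* (0.97) rose. *Krt20* and *Vil1* had at most 5 and 7 reads in any control. In the pre-metastatic livers they reached at most 1.31 RPKM (mouse M6) and 0.633 RPKM (mouse M12). Of 5 hepatocyte genes *Fgb* rose by 1.37 and *Cps1* fell by 1.61. Summed leukocyte markers ranged from 10.04 to 23.9 RPKM in control and from 20.2 to 57.4 RPKM in pre-metastatic liver.

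Likeness over the 14 livers, by Pearson's r of log2(RPKM + 1), is a description over libraries of 2 groups, each from its own mouse, that differ together in group and tissue makeup. The nearest gene was *Hbb-bt* for *Selp* (0.940), *Sbno2* for *Icam1* (0.933), *Fes* for *Vcam1* (0.875), *Cmtm3* for *Icam2* (0.943) and *Arap3* for *Pecam1* (0.959). It was *Exoc3l2* for *Stab1* (0.973), *Nrp2* for *Stab2* (0.943), *Chst15* for *Lyve1* (0.927) and *Aqp1* for *Clec4g* (0.970). The next 2 genes were *Gm30368* and *Il18rap* for *Sele*, *Gm41018* and *Prdx4* for *Selp*, *Scamp5* and *Cenpn* for *Icam1*, *Cd55* and *Hivep2* for *Vcam1*, and *Adcy4* and *Lfng* for *Icam2*. They were *Dchs1* and *Arhgap31* for *Pecam1*, *Flt4* and *Dchs1* for *Stab1*, *Adgra2* and *Hk1* for *Stab2*, *Mtss1l* and *Grasp* for *Lyve1*, and *Fcgr2b* and *Plxnc1* for *Clec4g*. *Hbb-bt*, a beta-globin gene of red cells, ranged from 13.3 to 26.6 RPKM in control liver and from 32.3 to 73.5 RPKM in pre-metastatic liver, so it did not overlap between the groups either.

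The second comparison set each tumor beside the liver. Normalization matters here. TMM factors were 0.64 to 0.844 in the livers and 1.54 to 1.69 in the tumors, so the median log2 fold change of all genes, tumor against pre-metastatic liver, was 0.13 with them and 1.31 with library totals alone. The split of calls moved from 8648 higher and 7809 lower to 13352 higher and 4206 lower. RPKM values follow the library totals. Fold changes below use TMM factors, and values with library totals are given beside them for part of the results.

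Against the pre-metastatic liver, 9 of the 10 genes differed: 5 were higher in tumor and 4 lower, where 43.8% and 39.5% of the 19749 genes tested were called higher and lower. *Sele*, *Selp* and *Vcam1* rose, with *Icam1* the exception among the inducible genes, and *Stab2* and *Clec4g* all but disappeared while *Stab1* rose. The median log2 fold change was 3.08 for the inducible and -5.01 for the sinusoid genes. With library totals the medians were 4.26 and -3.86. Against the control liver all 10 differed, 6 higher and 4 lower, where 44.2% and 38.1% of 19320 genes were called. Both comparisons use the same tumors.

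**Figure D4:**
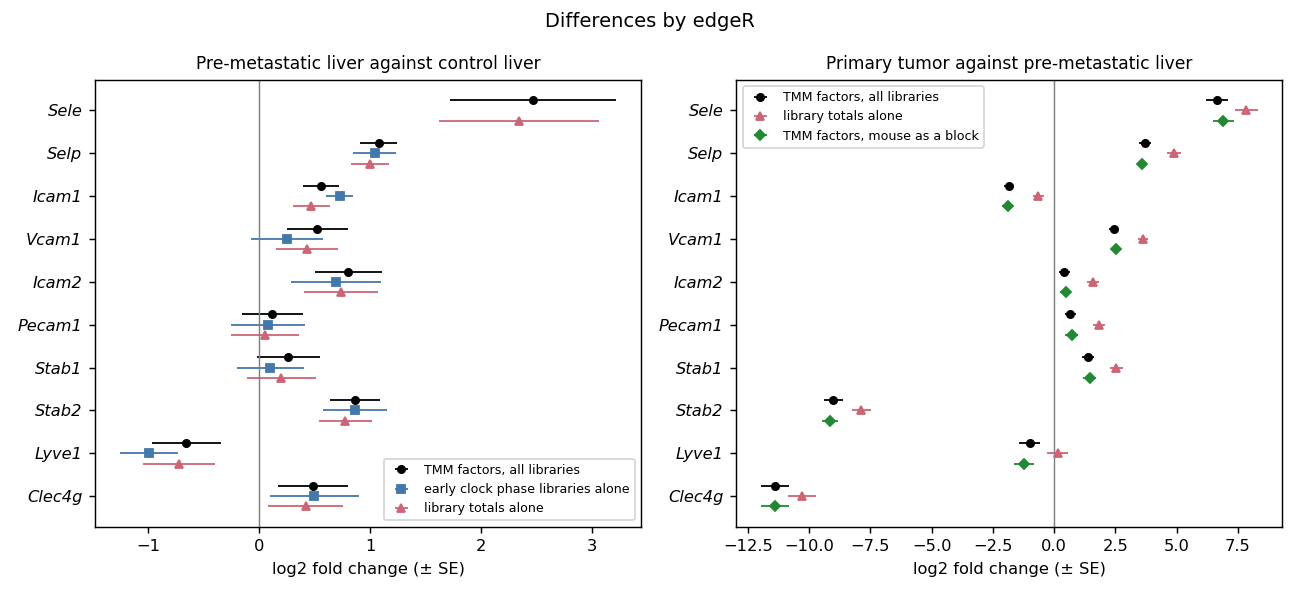
Log2 fold change with SE (edgeR) of each gene, for pre-metastatic against control liver (left, with TMM factors, within the early livers, and with library totals) and tumor against pre-metastatic liver (right, with TMM factors, with library totals, and with the mouse as a block). *Sele* has no value within the early livers, *Lyve1* changes sign on the right with library totals (-1.0 to 0.14), and the other 9 keep their direction there.

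*Sele* measured 23.7, 21.7, 27.6, 22.1, 24.2, 25.8, 49.5, 33.9 and 22.6 RPKM in the tumors of mice M1, M2, M4, M5, M6, M7, M8, M10 and M12. Every tumor exceeded its own liver by at least 61.7 times. With TMM factors the log2 fold change against the pre-metastatic liver was 6.64 ± 0.459 (SE, adjusted p = 4.26e-11, edgeR), the largest rise of the 10. With library totals, which the RPKM ratios follow, it was 7.84. *Selp* measured 27.2, 14.6, 44.2, 35.8, 63.4, 49.6, 75.1, 63.3 and 39.0 RPKM in the same order. It was 10.1 to 48.5 times the liver level within mice on the RPKM scale. The log2 fold change was 3.71 ± 0.255 with TMM factors (adjusted p = 3.93e-11, edgeR) and 4.89 with library totals. The antisense gene *Gm16548* was lower in every tumor than in every liver, at 2.08 to 8.29 RPKM. The summed platelet genes ranged from 9.19 to 114 RPKM in tumors. With TMM factors only *Pf4* of the 5 rose (3.3), *Itga2b* fell (-0.62) and the other 3 gave no call. With library totals all 5 rose. The part of platelet RNA in the tumor level of *Selp* was not tested.

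*Vcam1* was the most even of the members in tumor, between 69.3 and 98.4 RPKM with a coefficient of variation of 10.2%. On the RPKM scale it was 7.79 to 27.3 times the level in the liver of the same mouse. The log2 fold change was 2.44 ± 0.193 with TMM factors (SE, adjusted p = 3.61e-10, edgeR) and 3.63 with library totals. *Icam1* went the other way. It measured 4.37, 13.2, 9.83, 11.6, 4.49, 7.01, 5.42, 6.53 and 7.48 RPKM in the tumors and was lower than in the own liver in 8 of 9 mice, with mouse M2 the exception at 1.85 times. The log2 fold change was -1.83 ± 0.209 with TMM factors (adjusted p = 9.25e-08, edgeR) and -0.64 ± 0.21 with library totals (adjusted p = 0.00757, edgeR). Against the control liver *Icam1* was called lower at -1.26, but with library totals the value was -0.17 and no call (adjusted p = 0.512, edgeR).

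The constitutive genes were higher in all 9 tumors than in the own liver on the RPKM scale. *Icam2* measured 2.18 to 5.80 RPKM in tumors with a median of 3.91, and *Pecam1* 10.3 to 23.1 RPKM with a median of 15.4. With TMM factors *Pecam1* rose by 0.67 ± 0.218 (SE, adjusted p = 0.00851, edgeR) and *Icam2* gave 0.42 ± 0.207 and no call (adjusted p = 0.0664, edgeR). With library totals the values were 1.82 and 1.58, and both were called. Relative to the pan-endothelial genes both were higher in every tumor than in every pre-metastatic liver, by a mean of 1.58 for *Pecam1* and 1.32 for *Icam2* on the log2 scale, and so were 26.1% of the 19749 genes tested. With TMM factors 6 of the 10 pan-endothelial genes were themselves lower in tumor and 1 higher, so this ratio is not a level per endothelial cell. Leukocyte markers summed to 113 to 246 RPKM in tumors and 20.2 to 57.4 RPKM in pre-metastatic livers. The part of other cells in the *Pecam1* and *Icam2* values was not tested.

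The 4 sinusoid genes parted in the tumor. *Stab2* ranged from 0.0141 to 0.113 RPKM, from 6 to 58 reads, and *Clec4g* was listed at 0 in 5 of 9 tumors and reached 0.0622 RPKM at most, with no more than 11 reads. Of the 23 *Clec4g* reads in tumors, 21 lay in mice M10 and M12, whose hepatocyte sums were 146 and 289 RPKM against 7.06 to 32.0 in the other 7. Fold changes on the log2 scale were -9.02 ± 0.391 for *Stab2* and -11.4 ± 0.559 for *Clec4g* (SE, adjusted p = 3.33e-14 and 1.90e-13, edgeR). With library totals they were -7.9 and -10.3. With TMM factors but without mouse M10 or M12, *Clec4g* stood at -12.1. Within the mice of the early livers it stood at -14.2, with *Stab2* at -9.96. The part of liver RNA in these tumor reads was not tested. The tumor with the most *Stab2* reads was that of mouse M1, where *Clec4g* was listed at 0 and the hepatocyte sum was 14 RPKM.

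*Stab1* ran opposite to *Stab2*. It measured 21.1, 48.8, 17.0, 30.3, 41.8, 28.3, 30.7, 32.2 and 40.5 RPKM in the tumors and was 2.24 to 14.1 times the liver level in all 9 mice. On the log2 scale the rise was 1.38 ± 0.247 with TMM factors (SE, adjusted p = 3.46e-05, edgeR) and 2.54 with library totals. Macrophages also express *Stab1*, and leukocyte markers summed to 113 to 246 RPKM in tumors, against 20.2 to 57.4 RPKM in the pre-metastatic livers. The highest tumor for both was that of mouse M2. Their part in the *Stab1* value was not tested.

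*Lyve1* gave no settled direction. It measured 3.81, 2.13, 0.624, 0.371, 3.79, 1.40, 0.886, 4.42 and 1.77 RPKM in the tumors, was higher than in the own liver in 4 mice and lower in 5, and varied more than any member other than *Stab2* and *Clec4g* in tumors. With TMM factors it was called lower, at -1.0 ± 0.431 (SE, adjusted p = 0.0377, edgeR). With library totals it was 0.14 ± 0.429 with no call (adjusted p = 0.752, edgeR), and the call was kept in 3 of the 9 fits that left out 1 mouse. Against the control liver the value was -1.65 with TMM factors, and -0.57 with no call with library totals.

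The sums of the classes summarize the contrast on the RPKM scale. The inducible genes summed to 11.1 to 17.8 RPKM in control liver, 16.0 to 27.0 in pre-metastatic liver and 137 to 222 in tumor. The sinusoid genes summed to 17.5 to 35.9, 13.9 to 54.0 and 17.7 to 50.9 RPKM, where *Stab1* was the largest term in every tumor and *Lyve1* the next. The ratio of the inducible to the sinusoid sum was 0.420 to 0.830 in control liver, 0.362 to 1.26 in pre-metastatic liver and 2.68 to 9.94 in tumor. The livers overlapped in this ratio and every tumor lay above every liver.

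Other vessel genes in the tumor, from the same fit, also divided. Of 12 further sinusoid genes, 9 fell and 3 rose, the largest fall being *Clec1b* (-7.26) and the largest rise *Mrc1* (1.32), a receptor that macrophages share. The median log2 fold change was -4.44, and the same counts were obtained with library totals. Of 10 pan-endothelial genes, *Emcn* (0.64) rose, 6 fell, with *Tek* (-3.11) the largest, and 3 gave no call. With library totals 4 rose and 3 fell. Of 8 continuous and angiogenic genes, 5 rose, led by *Esm1* (7.14), a gene of endothelial tip cells, and 3 fell, led by *Vwf* (-3.52), with 5 higher and 1 lower by library totals. Of 5 lymphatic genes, *Pdpn* rose and 4 fell, led by *Prox1* (-11.2), where the median of the 5 hepatocyte genes was -10.9. The part of other liver cells in the falls of the lymphatic genes was not tested. Because several of these vessel genes are also expressed by carcinoma cells or fibroblasts, the bulk values do not name the cell.

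Adhesion partners were high in tumor too. Of 9 leukocyte ligand genes 7 rose and none fell, led by *Spn* (4.57), and all 9 rose with library totals. Of 11 NF-kappaB genes 8 rose, led by *Nfkb2* (3.74), and *Il1a* (-2.28) fell. With library totals 10 of the 11 rose and 1 fell. Of 8 other adhesion genes tested 2 rose, led by *Cd44* (3.62), and 5 fell, led by *F11r* (-4.53), whereas with library totals 4 rose and 3 fell. All 5 Kupffer genes fell, led by *Clec4f*, and 3 of 4 leukocyte markers rose, led by *Cd68*. With library totals all 4 leukocyte markers rose. *Pf4* rose and *Itga2b* fell among 5 platelet genes, and all 5 rose with library totals. *Col1a1* rose and *Lrat* fell most among 5 stellate cell and fibroblast genes, of which 3 rose in all. All 5 hepatocyte genes fell. Of 6 epithelial genes *Krt20* and *Cdx2* rose and 4 fell, led by *Krt8*, and of 4 neutrophil genes tested *Csf3r* rose. With library totals 3 epithelial genes fell.

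Against the control liver, the same tumors gave log2 fold changes of 9.12 for *Sele*, 4.80 for *Selp*, 2.98 for *Vcam1*, 1.24 for *Icam2*, 0.80 for *Pecam1* and 1.67 for *Stab1*. The values were -1.26 for *Icam1*, -1.65 for *Lyve1*, -8.15 for *Stab2* and -10.9 for *Clec4g* (edgeR with TMM factors, all 10 called). *Clec4g* stood at -11.6 without the tumor of mouse M10 and -11.5 without that of mouse M12. With library totals 8 were called, all but *Icam1* and *Lyve1*. Of all 19320 genes, 12859 were called higher and 4130 lower with library totals. Of the other lists in this comparison, 9 of 12 sinusoid genes fell and 3 rose, 8 of 9 leukocyte ligand genes rose, and 10 of 11 NF-kappaB genes rose. With library totals all 9 ligand genes rose.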

How the data were processed

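Per the labels and the study's methods, poly(A) RNA of 23 tissue pieces was made into NEBNext Ultra libraries. The submitters' processing notes name HISAT2, HTSeq 0.6.0 and mm10. The deposited table holds whole-number counts and RPKM that the authors computed from them, 46 columns, each matched to a sample by mouse and tissue code. Its RPKM could be recomputed from the counts and gene lengths to within 1.75e-06 of the value. Two-sided edgeR 4.0.16 quasi-likelihood tests with TMM factors (R 4.3.3) were run on genes that reached 10 counts in 5 or more of the libraries compared, with p-values adjusted over all of them. On counts simulated for pre-metastatic against control liver, 128 of 200 genes changed 2-fold were recovered, with 8 false calls. Labels name separate mice. Liver and tumor of a mouse are paired by the mouse number in the labels, although their deviations from the group means correlated weakly (mean r 0.0701 over 9 mice). Alternatives used limma 3.58.1 on log2(RPKM + 1) or log2(RPKM + 0.1), DESeq2 1.42.0 and exact Wilcoxon tests. The clock index contrasts *Dbp*, *Per3* and *Ciart* with *Arntl*, *Npas2* and *Clock*. Log2 RPKM relative to pan-endothelial genes used a pseudocount of 0.01. Named genes were the 10 members, the called gene with the largest rise and fall of each list, markers, and the 3 genes most like each member. Members and lists were chosen with earlier results of these data known.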

Additional observations from a re-analysis of the deposited data

Results flagged for a closer look

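Of 30 gene and group pairs, 3 held a library far from the others of its group. How many would be flagged by chance in skewed, low-count genes was not worked out. *Sele* in the pre-metastatic liver of mouse M6 stood at 0.393 RPKM, from 90 reads, against 0.0166 to 0.190 RPKM in the other 8 livers. *Sele* in the tumor of mouse M8 stood at 49.5 RPKM against 21.7 to 33.9 RPKM in the other 8 tumors. *Stab2* in the tumor of mouse M1 stood at 0.113 RPKM, from 58 reads, against 0.0141 to 0.0565 RPKM in the other 8 tumors.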

How the results depend on the processing

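Of the 10 genes, 4 were called between the livers by edgeR, and 4 or 5 under other size factors, without a filter, by DESeq2, with the clock phase as a covariate or within the early livers, where *Lyve1* was called lower and *Sele* was not tested. Over all genes, those other settings called 2369 to 3397 higher and 1768 to 2796 lower, of 16158 to 31071 tested. limma called 2 with either pseudocount (2 with 1, 2 with 0.1: *Selp* and *Stab2*) and the exact Wilcoxon test called 1 (*Selp*). Of all 16987 genes, limma called 1988 higher and 3068 lower with 1, and 2290 and 2852 with 0.1. Leaving out 1 library gave 3 to 5 of the 10 genes, and 2501 to 2964 higher and 1757 to 2320 lower over all genes. *Pecam1* between the livers changed sign, never called, at -0.0083 (limma, 0.1) and over -0.027 to 0.26 when 1 library was left out. *Lyve1*, tumor against pre-metastatic liver, was 0.14 with library totals, 0.019 by limma with a pseudocount of 1 and 0.14 by Wilcoxon. All of these *Lyve1* settings scale by library totals, which RPKM follow, and not by TMM factors. By limma with a pseudocount of 0.1, which also scales this way, the sign of *Lyve1* stayed negative. The cause was not tested. With the mouse as a replicate block, tumor against pre-metastatic liver, 9 of the 10 genes were called, and 8670 genes in all were higher and 7659 lower. The block changed no call among the 10. *Icam2* in the same comparison was called under 6 other settings (adjusted p 6.39e-07 to 0.162 over 11). Among recounts of the gene lists, 1774 stayed within 1.5 times and 130 did not. *Sele* in liver and *Stab2* and *Clec4g* in tumor rest on few reads, so depth limits their values.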
